A study of Saccharomyces cerevisiae with 6 samples.

Results

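The pericentromeric chromatin of the 16 chromosomes of Saccharomyces cerevisiae was taken as all DNA within 10 kb of 16 approximate centromere centres, 1 per chromosome. It covers 2.65% of the mapped genome. Of the 52167 nucleosomes called in wildtype cells at 0 h, 1390 had their centre in it. By distance from the centre, 56 of these lay under 0.5 kb away, 343 lay 0.5 to 3 kb away and 991 lay 3 to 10 kb away. The members were chosen by position alone, and the rest of the same chromosomes served for comparison. The centres are approximate positions on the sacCer1 build, so small differences in distance carry no weight.

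Budding yeast has point centromeres: a short sequence on each chromosome that binds a single specialised nucleosome, in which Cse4 takes the place of histone H3, together with the DNA-binding complexes on which the kinetochore is built. The DNA on either side carries ordinary H3 nucleosomes and is rich in cohesin and condensin, which hold the sister chromatids together and shape the chromatin between sister kinetochores in mitosis. Micrococcal nuclease (MNase) cuts the DNA between nucleosomes, and the sequenced mononucleosomal fragments then mark where nucleosomes sat.

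The 6 MNase-seq libraries were 2 at 3 h and 2 at 0 h of an H3 shutoff strain (DCB200.1), and 1 at 3 h and 1 at 0 h of a wildtype strain (YEF473A), the time being counted after the cells left galactose for dextrose. In DCB200.1 the gene HHT1 was deleted and HHT2, the other H3 gene, stood under the GAL1 promoter, so dextrose stops H3 transcription; YEF473A kept both H3 genes. Both strains grew in galactose first, were moved to dextrose at both times, and were fixed with formaldehyde before MNase digestion. Each replicate was 1 culture sampled at both times, and H3 shutoff cells arrest in G2/M in dextrose, so loss of H3 and the arrest cannot be told apart in these libraries. The question was whether pericentromeric nucleosomes, and those beside the centromere in particular, responded to H3 depletion differently from the rest of the chromosomes.

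Every library held 5000001 reads, because the same number was drawn from each, and an even loss of nucleosomes over the genome would therefore leave no trace. Fewer cells with a nucleosome and less of it per cell cannot be told apart either. The share of distinct read intervals was 59.5% and 64.5% in H3 shutoff 3 h, 52.7% and 51.9% in H3 shutoff 0 h, 46.2% in wildtype 3 h and 47.8% in wildtype 0 h. Between 1378 and 1527 nucleosomes were called within 10 kb of a centromere in the 6 libraries. A "read centre" below is the middle of an extended read, and the read centres within 50 bp of a called nucleosome centre are its occupancy. Nucleosomes were taken from the wildtype 0 h list, which is 1 of the libraries compared.

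The centromere itself was nearly empty of nucleosomal reads in both strains and at both times. In the 201 bp around the 16 centres, where a library at its mean density would hold 1332 read centres, H3 shutoff 3 h held 25 and 28, and H3 shutoff 0 h held 37 and 5. Wildtype held 4 at 3 h and 6 at 0 h. As a share of the library mean this was 1.88% (95% Clopper-Pearson interval of the share of reads 1.21% to 2.77%) and 2.10% (1.40% to 3.04%) in H3 shutoff 3 h, against 2.78% (1.96% to 3.83%) and 0.375% (0.122% to 0.876%) in H3 shutoff 0 h. The wildtype shares were 0.300% (0.0818% to 0.769%) at 3 h and 0.450% (0.165% to 0.980%) at 0 h. These intervals cover counting error only. The sequenced DNA came from a mononucleosome band cut from a gel, so protected fragments of other lengths could be missing. Whether any were missing at the centromere was not tested.

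The replicates at 0 h thus lay on either side of those at 3 h, and the centre gave no separation of the times in H3 shutoff. Both H3 shutoff 3 h libraries and replicate 1 of H3 shutoff 0 h stood above the other 3 libraries. No read centre was found at 5 and 3 of the 16 centromeres in H3 shutoff 3 h and at 2 and 12 in H3 shutoff 0 h, and at 12 in wildtype at 3 h and 12 at 0 h. A count of 0 at 1 centromere allows a density of up to 3.60% of the library mean. The highest count at any centromere was 7, at CEN4 in H3 shutoff 0 h replicate 1.

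**Figure D1:**
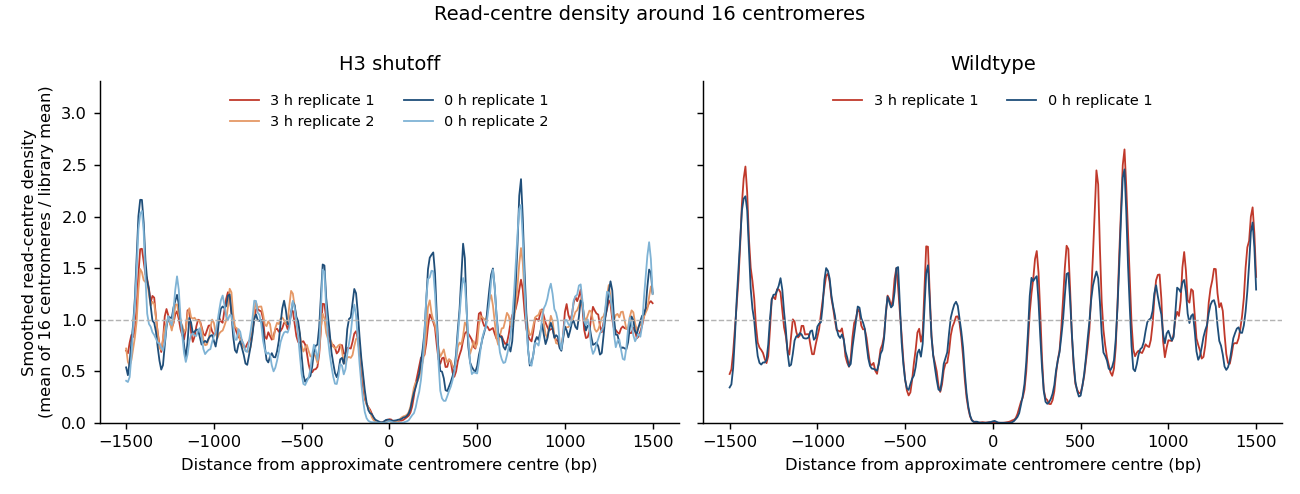
Smoothed read-centre density, as the mean over the 16 centromeres divided by the library mean, against distance in bp from the approximate centre, for H3 shutoff (left) and wildtype (right), with 1 line per library. All 6 lines run close to 0 around the centre, and the peaks on either side are lower at 3 h than at 0 h in H3 shutoff (mean of the left and right peak 1.12 and 1.13 against 1.62 and 1.52).

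The empty stretch had a similar width at both times, while the highest peak on either side was lower at 3 h in both H3 shutoff cultures. Measured between the points where the mean profile passed 0.5 of the library mean, the trough was 325 and 332 bp wide in H3 shutoff 3 h, 326 and 352 bp in H3 shutoff 0 h, 355 bp in wildtype 3 h and 348 bp in wildtype 0 h. The highest peaks between 100 and 400 bp from the centre averaged 1.12 and 1.13 times the library mean in H3 shutoff 3 h, against 1.62 and 1.52 in H3 shutoff 0 h. In wildtype the same value was 1.73 at 3 h and 1.50 at 0 h. The highest peak on the right lay 227 to 248 bp from the centre, in the nucleosome next to the gap, and that on the left lay 373 to 378 bp away, beyond the first nucleosome, so the average is of a first and a second nucleosome. The right peak alone was 1.05 and 1.20 in H3 shutoff 3 h, 1.66 and 1.50 in H3 shutoff 0 h, 1.67 in wildtype 3 h and 1.44 in wildtype 0 h.

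The peak density changed by -0.50 and -0.39 in the H3 shutoff cultures (3 h minus 0 h, mean -0.44 ± 0.08, SD, n = 2) and by 0.23 in the wildtype culture. With each distinct interval counted once the mean H3 shutoff change was -0.25 and the wildtype change 0.0044. No test was run on these values, and an exact two-sided permutation test of 2 against 2 libraries cannot go below p = 0.333. Peaks beside other gaps of the same width were also lower at 3 h in H3 shutoff, as given below.

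Each centromere lay in 1 wide gap between called nucleosomes with more than 5 read centres. In wildtype 0 h the gaps, from centre to centre of the nucleosomes on either side, ran from 377 bp at CEN11 to 514 bp at CEN9 around a median of 429.5 bp, against a median of 199 bp for the other 51387 gaps, of which 99.3% were narrower than the centromere median. The median centromere gap was 417.5 and 417 bp in H3 shutoff 3 h, 404 and 443.5 bp in H3 shutoff 0 h, and 447 bp in wildtype 3 h. The 2 times overlapped in H3 shutoff, and the medians of all 6 libraries stood above 99% of the other gaps of the same library.

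Single gaps varied far more than their median. At CEN2, where the wildtype 0 h gap ran between nucleosomes at 238118 and 238516 on chromosome 2, the width was 413 and 205 bp in H3 shutoff 3 h, 402 and 398 bp in H3 shutoff 0 h, 403 bp in wildtype 3 h and 398 bp in wildtype 0 h. The CEN4 gap, between 449620 and 450019 on chromosome 4 in wildtype 0 h, was 291 and 291 bp in H3 shutoff 3 h, 241 and 412 bp in H3 shutoff 0 h, 420 bp in wildtype 3 h and 399 bp in wildtype 0 h. CEN8 had 399 and 249 bp in H3 shutoff 3 h, 398 and 448 bp in H3 shutoff 0 h, 426 bp in wildtype 3 h and 406 bp in wildtype 0 h. Narrow gaps at CEN2 and CEN8 were thus found in 1 of the 2 H3 shutoff 3 h libraries, and at CEN4 in 3 of the 4 H3 shutoff libraries at either time. CEN6 was as narrow in 1 library at 0 h, with 422 and 458 bp in H3 shutoff 3 h, 290 and 442 bp in H3 shutoff 0 h, 440 bp in wildtype 3 h and 445 bp in wildtype 0 h.

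The widest single gaps, 711 bp in wildtype 3 h and 682 bp in H3 shutoff 0 h replicate 2, were at CEN1. This gap was not the widest in every library. It was 506 and 401 bp in H3 shutoff 3 h, 455 bp in H3 shutoff 0 h replicate 1 and 424 bp in wildtype 0 h. The nucleosomes beside CEN1 were thinly covered, with 10 read centres on the left and 6 on the right in wildtype 0 h, so a few reads decide whether they are called. The CEN15 gap varied least, with 461 and 457 bp in H3 shutoff 3 h, 454 and 448 bp in H3 shutoff 0 h, 448 bp in wildtype 3 h and 452 bp in wildtype 0 h.

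**Figure D2:**
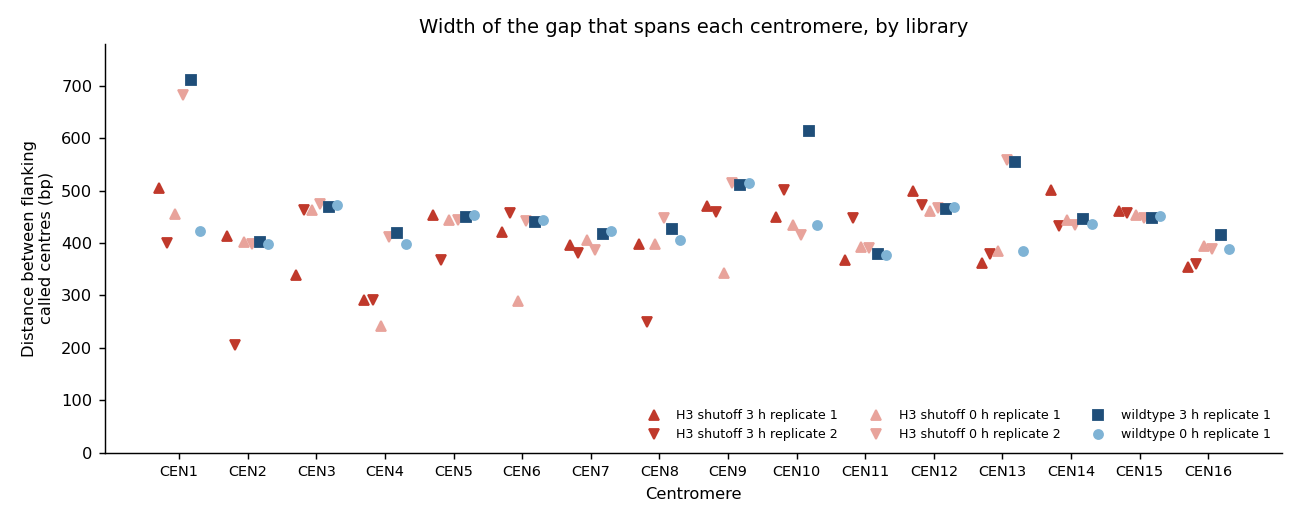
Distance in bp between the called nucleosome centres on either side of each of the 16 centromeres, with 1 point per library and centromere (red, H3 shutoff 3 h; light red, H3 shutoff 0 h; dark blue, wildtype 3 h; light blue, wildtype 0 h). Most points lie between 340 and 510 bp in all libraries, with low points at CEN2 and CEN8 in H3 shutoff 3 h replicate 2, at CEN4 in 3 H3 shutoff libraries and at CEN6 in H3 shutoff 0 h replicate 1, and the high points at CEN1 in wildtype 3 h and H3 shutoff 0 h replicate 2.

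Other gaps of the same width were fuller than those at the centromeres. Of the gaps outside the pericentromeres, 536 lay between 377 and 514 bp in wildtype 0 h, and this comparison was added after the data were seen. In the middle 101 bp the centromere gaps held a mean of 1.19 and 1.06 read centres in H3 shutoff 3 h, against 7.62 and 7.59 in the other gaps. In H3 shutoff 0 h they held 1.31 and 0.313, against 9.15 and 3.04. Wildtype centromere gaps held 0.125 at 3 h and 0.250 at 0 h, against 3.84 and 1.99 in the other gaps of those libraries.

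The centromere gaps held the lower mean in all 6 libraries. Replicate 1 of H3 shutoff 0 h, which stood apart from replicate 2 at the centromere, also held more reads in the other gaps (9.15 against 3.04). The part of this difference between the libraries in the centromere counts was not tested.

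The 32 nucleosomes that flank the gaps held fewer read centres after H3 depletion when summed. The sum was 1138 and 1106 in H3 shutoff 3 h, 1606 and 1391 in H3 shutoff 0 h, 1466 in wildtype 3 h and 1550 in wildtype 0 h. Occupancy summed over all 51419 nucleosomes with more than 5 read centres in wildtype 0 h was also lower at 3 h, with 2637190 and 2678630 in H3 shutoff 3 h, against 3204743 and 3324306 in H3 shutoff 0 h. The 2 times did not overlap in either sum. Every library held the same number of reads, so a lower sum over all nucleosomes means more read centres outside these windows. Read centres that scatter or shift out of a window lower its count, as does loss of the nucleosome. These were not told apart here.

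Of the 32 flanking nucleosomes, 20 had fewer read centres at 3 h in both H3 shutoff cultures, which is 62.5%, against 45.6% of all nucleosomes and 46.9% of the pericentromeric ones. Only 2 had more in both cultures, which is 6.25%, against 18.9% of all nucleosomes. Across the distance classes the share with fewer in both was 57.4% under 0.5 kb, 47.8% at 0.5 to 3 kb and 45.9% at 3 to 10 kb. The share was highest next to the gap, and the difference between these shares was not tested. In culture 1, 28 of the 32 flanks fell, with a median log2 change of -0.47, against -0.19 over all nucleosomes. In culture 2, 21 fell, with a median of -0.24, against -0.25 over all nucleosomes. In the wildtype culture 18 fell, with a median of -0.15, against -0.07 over all nucleosomes. By the median, the flanks thus lay below the genome in H3 shutoff culture 1 and, by less, in wildtype, but not in H3 shutoff culture 2.

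The largest flanking occupancies were beside CEN2 and CEN15. The right flank of CEN2 held 75 and 90 read centres in H3 shutoff 3 h, 181 and 147 in H3 shutoff 0 h, 182 in wildtype 3 h and 152 in wildtype 0 h. The right flank of CEN15 held 69 and 107 in H3 shutoff 3 h, 118 and 149 in H3 shutoff 0 h, 132 in wildtype 3 h and 142 in wildtype 0 h. Both had every 3 h library of H3 shutoff below every 0 h library.

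The left flank of CEN3 held 27 and 34 in H3 shutoff 3 h, 60 and 53 in H3 shutoff 0 h, 61 in wildtype 3 h and 55 in wildtype 0 h. By contrast the left flank of CEN2 gave 18 and 16 in H3 shutoff 3 h, 18 and 16 in H3 shutoff 0 h, and 20 in either wildtype library. The right flank of CEN10 held 21 and 25 in H3 shutoff 3 h, 18 and 10 in H3 shutoff 0 h, 4 in wildtype 3 h and 7 in wildtype 0 h. At CEN2 the right flank thus held fewer read centres at 3 h in both H3 shutoff cultures and the left flank did not. The difference between sides was not tested.

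In edgeR's quasi-likelihood fit, with the culture as a block and Benjamini-Hochberg adjustment over all 51060 nucleosomes tested, none of the 30 flanking nucleosomes that passed the filter on low counts was called at an adjusted p under 0.05. At an unadjusted p under 0.05 it was 1, which was lower, the lowest adjusted p was 0.113, and the median log2 change was -0.07. DESeq2 with the block called 0 as well, but it called 0 of all 51060 nucleosomes. In simulated counts with 200 nucleosomes changed, the blocked edgeR fit called 17% of the 2-fold changes and 92% of the 4-fold changes. Most 2-fold changes could thus go uncalled. TMM scaling sets the median of all nucleosomes to 0.02 in this contrast, whereas scaling to library totals sets it to -0.22, so the fit measures change relative to the other nucleosomes.

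**Figure D3:**
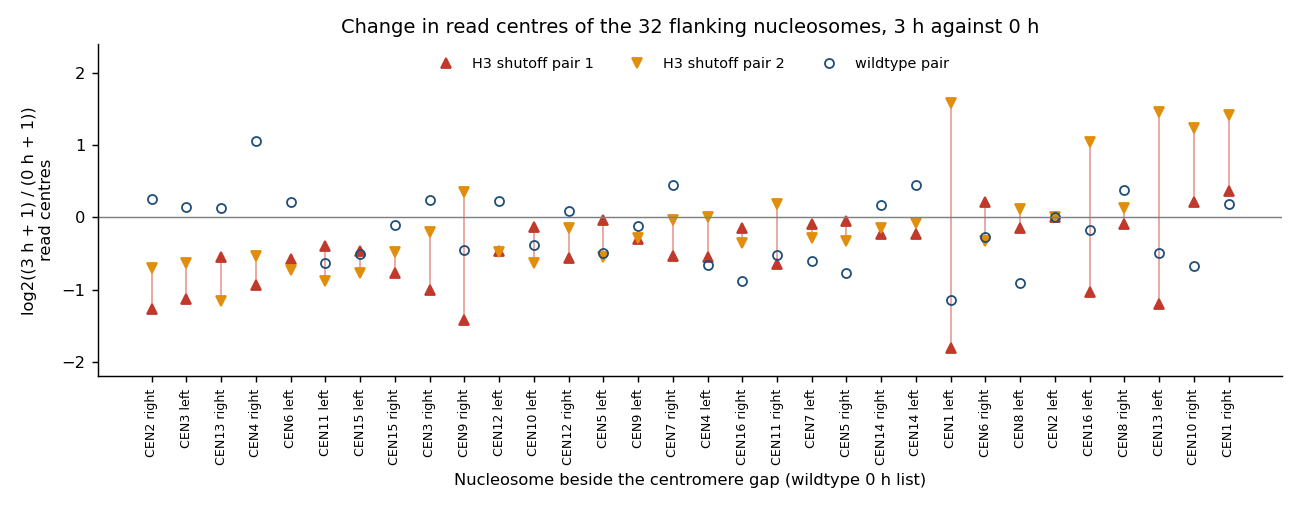
Log2 ratio of read centres (3 h plus 1 over 0 h plus 1) for the 32 nucleosomes beside the centromere gaps, ordered by their mean in H3 shutoff, with triangles for the H3 shutoff cultures and circles for the wildtype culture. In 20 of the 32 both triangles lie below 0, and in 2 both lie above it.

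Arrays of nucleosomes led away from the centromere gaps. Over the 32 flanks the second peak lay 178 to 180 bp from the flanking nucleosome in all 6 libraries and the third lay 346 to 356 bp away. The density of the second peak was 0.995 and 0.986 times the library mean in H3 shutoff 3 h, 1.74 and 1.66 in H3 shutoff 0 h, 2.09 in wildtype 3 h and 1.77 in wildtype 0 h. At these 2 peaks the positions were alike at both times, and the second peak was lower at 3 h in both H3 shutoff cultures. Farther out the positions varied more. The fourth peak lay at 479 and 476 bp in H3 shutoff 3 h and 519 and 484 bp in H3 shutoff 0 h. In wildtype it lay at 514 bp at 3 h and 480 bp at 0 h. The fifth peak lay at 624 and 612 bp in H3 shutoff 3 h and 702 and 706 bp in H3 shutoff 0 h. In wildtype it lay at 706 bp at 3 h and 711 bp at 0 h. The fifth peak had a density of only 1.02 and 1.06 in H3 shutoff 3 h. Peaks were numbered outwards, so the same number need not mark the same nucleosome.

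The third peak had 1.11 and 1.30 in H3 shutoff 3 h, 1.69 and 1.55 in H3 shutoff 0 h, 2.20 in wildtype 3 h and 1.84 in wildtype 0 h. Beside the 1069 flanks of the other gaps of the same width, the second peak had 1.28 and 1.37 in H3 shutoff 3 h, 1.93 and 2.04 in H3 shutoff 0 h, 2.36 in wildtype 3 h and 2.33 in wildtype 0 h. There too the second peak was lower at 3 h in H3 shutoff. The first peak, at the flanking nucleosome, was lower at both kinds of gap. At centromeres it had 1.26 and 1.27 in H3 shutoff 3 h, against 2.3 and 2.0 in H3 shutoff 0 h. At other gaps it had 1.79 and 1.86, against 2.98 and 2.85. In wildtype it had 2.26 at 3 h and 2.30 at 0 h at centromeres, and 3.35 and 3.33 at other gaps.

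The contrast between peak and valley at some distance from the gap was compared in the same way. Taken as the range over the mean of the profile in consecutive windows of 160 bp, the contrast in the third window from the flanking nucleosome was 0.287 and 0.400 at centromeres and 0.0904 and 0.176 at other gaps in H3 shutoff 3 h. In H3 shutoff 0 h it was 1.01 and 1.11 at centromeres and 0.626 and 0.705 at other gaps. In wildtype it was 1.51 at centromeres and 0.986 at other gaps at 3 h, and 1.35 and 0.985 at 0 h. In this window the centromere contrast was higher in all 6 libraries. In the second window it was lower at centromeres in H3 shutoff 3 h replicate 2 (0.306, against 0.425 at other gaps) and higher in the other 5 libraries. The centromere value rests on 32 flanks and the other on 1069, and the part of the smaller number in the contrast was not tested.

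The density of reads within 0.5 kb of the centre was below that of the chromosome, at either time. This class takes in the nearly empty trough at the centre. In the step from 0.5 to 1 kb the density was 0.94 to 1.02 times that of the rest. Within 0.5 kb the log2 ratio of read centres per kb to the rest of the chromosomes was -0.94 and -0.90 in H3 shutoff 3 h, -0.74 and -0.99 in H3 shutoff 0 h, -0.91 in wildtype 3 h and -0.96 in wildtype 0 h. All 16 chromosomes lay below their rest in all 6 libraries. The ratio changed by -0.20 and 0.09 in the H3 shutoff cultures (mean -0.05 ± 0.20, SD, n = 2) and by 0.05 in wildtype, so the cultures had opposite signs.

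Farther out the density was close to that of the rest of the chromosome. At 0.5 to 3 kb the log2 ratio was -0.06 and 0.00058 in H3 shutoff 3 h, -0.07 and -0.06 in H3 shutoff 0 h, 0.04 in wildtype 3 h and -0.04 in wildtype 0 h. Over the whole 10 kb it changed by -0.00079 and 0.04 in the H3 shutoff cultures and by 0.07 in wildtype. Neither H3 shutoff culture moved farther than the wildtype culture.

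**Figure D4:**
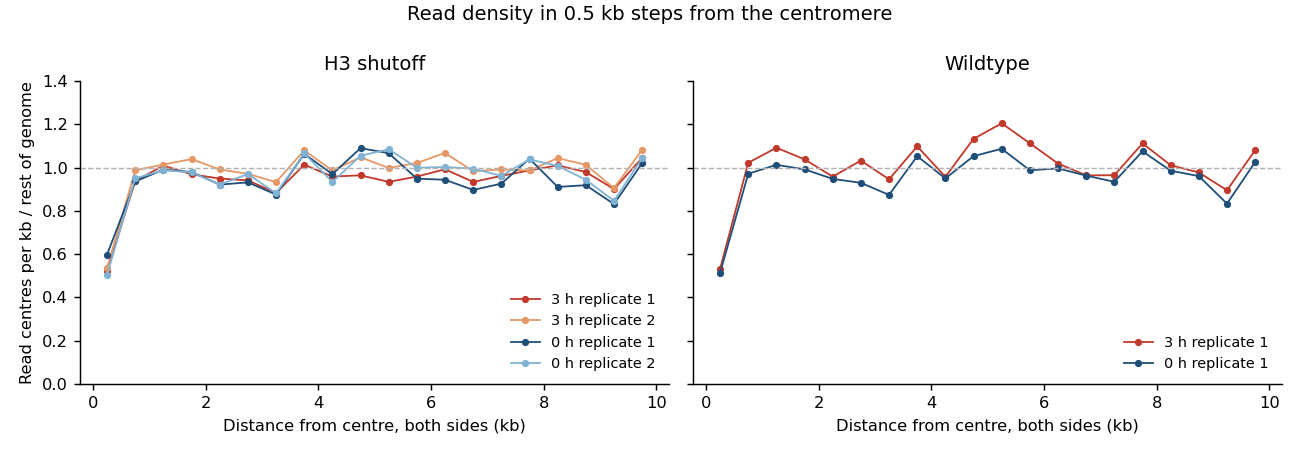
Read centres per kb divided by those of the rest of the chromosomes, in steps of 0.5 kb from the centromere centre with both sides together, for H3 shutoff (left) and wildtype (right). The first step lies at 0.521 and 0.535 in H3 shutoff 3 h, 0.598 and 0.504 in H3 shutoff 0 h, 0.531 in wildtype 3 h and 0.513 in wildtype 0 h, and the later steps lie between 0.831 and 1.20.

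Counted in tiles of 1 kb laid out from each centre, the 16 central tiles gave no call over time in H3 shutoff. They held 122 to 325 and 158 to 284 read centres in H3 shutoff 3 h (medians 214 and 216) and 172 to 348 and 94 to 287 in H3 shutoff 0 h (medians 235 and 204). In wildtype they held 96 to 351 at 3 h (median 210) and 93 to 294 at 0 h (median 206.5). The median over all tiles of the genome was 390 to 411.

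The log2 change of the central tiles, 3 h over 0 h in H3 shutoff, ran between -0.48 at CEN10 and 0.33 at CEN8, with a median of -0.04, and edgeR called 0 of 16, against 3.69% of all 12025 tiles lower and 5.56% higher. At an unadjusted p under 0.05 it was 1 of 16, CEN10. DESeq2 with the block called 0 (0 unadjusted), against 0.0249% of all tiles lower and 0.0333% higher. The change differed from that of wildtype at 0 of the 16 central tiles with either tool (0 unadjusted). In that test DESeq2 with the block called 0 of all 12025 tiles. CEN10 held 194 and 217 read centres in H3 shutoff 3 h, 311 and 260 in H3 shutoff 0 h, 294 in wildtype 3 h and 281 in wildtype 0 h (log2 change -0.48, edgeR adjusted p = 0.160). It was 1 of 3 central tiles in which both 3 h libraries lay below both 0 h libraries, and none lay above. Of the 6 ways to order 2 and 2 libraries, 1 puts both 3 h libraries lowest. The share of all tiles with this order was not counted, so no lean is read from these tiles. Without H3 shutoff 0 h replicate 2 and without the block, CEN10 (-0.61, edgeR adjusted p = 0.00906) and CEN12 (-0.49, edgeR adjusted p = 0.0306) were called lower.

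Of the 304 tiles within 9.5 kb of a centre, the central ones included, 8 fell and 7 rose in H3 shutoff in the same fit, which is 2.63% and 2.30%, against the 3.69% and 5.56% of all tiles given above. DESeq2 with the block called 0 of them (6 lower and 5 higher at an unadjusted p under 0.05), against 0.0249% lower and 0.0333% higher of all tiles. Without the block it called 3 lower and 3 higher, which is 0.987% each, against 1.44% and 1.73% of all tiles. The change differed from that of wildtype in 5 of the 304 tiles, 4 of them downwards and 1 upwards, which is 1.32% and 0.329%, against 0.682% and 1.75% of all tiles. Without the replicate block edgeR called no difference (23 lower and 17 higher unadjusted), nor did DESeq2 with the block (4 and 2 unadjusted). Neither of these fits called a difference at any of the 12025 tiles. DESeq2 without the block gave an adjusted p to 15 of the 304 tiles and called 3 lower, against 9.94% lower and 0.24% higher of all tiles with an adjusted p. These lay 1 kb to the right of CEN4, 5 kb to the right of CEN15 and 1 kb to the right of CEN16.

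Rises and falls of tiles were spread over chromosomes. The tile 1 kb to the right of CEN16 held 568 and 617 read centres in H3 shutoff 3 h, 881 and 946 in H3 shutoff 0 h, 1069 in wildtype 3 h and 909 in wildtype 0 h (log2 change -0.63, edgeR adjusted p = 0.0134). It is part of a fuller stretch of 0.5 to 3 kb to both sides of CEN16 that held 2399 and 2449 in H3 shutoff 3 h, 2923 and 2868 in H3 shutoff 0 h, 3299 in wildtype 3 h and 2932 in wildtype 0 h. The H3 shutoff and wildtype changes of this stretch had opposite signs, as they had at 5 of the 16 chromosomes.

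The tile 3 kb to the right of CEN10 held 425 and 387 in H3 shutoff 3 h, 163 and 278 in H3 shutoff 0 h, 248 in wildtype 3 h and 264 in wildtype 0 h (log2 change 0.91, edgeR adjusted p = 0.00159). The tile 2 kb to the right of CEN4 held 399 and 393 in H3 shutoff 3 h, 207 and 252 in H3 shutoff 0 h, 419 in wildtype 3 h and 226 in wildtype 0 h (log2 change 0.78, edgeR adjusted p = 0.00439). The rise at CEN4 was matched in the wildtype culture (log2 0.89), whereas at CEN10 the wildtype value was -0.09. For neither was the difference between strains called (edgeR adjusted p = 0.874 and 0.110).

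Between the strains, no central tile and none of the 304 tiles differed at 0 h, where 0.00832% of all tiles were lower in H3 shutoff and 0.00832% higher (edgeR, no block; unadjusted, 0 of the 16, and 1 of the 304 lower and 4 higher, and DESeq2 called 0). At 3 h, 37 of the 304 tiles were lower in H3 shutoff and 18 higher, which is 12.2% and 5.92%, against 12% and 12.9% of all tiles. DESeq2, also without a block, called 10 lower and 12 higher, which is 3.29% and 3.95%, against 5.69% and 8.72% of all tiles. This comparison rests on 1 wildtype library.

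The central tile called at 3 h was CEN8, with 240 and 213 read centres in H3 shutoff 3 h, against 96 in wildtype 3 h (log2 difference 1.20, edgeR adjusted p = 0.0276). At 0 h it held 221 and 143 in H3 shutoff and 130 in wildtype, so the H3 shutoff values were also higher there without a call. DESeq2 called it as well. Leaving out H3 shutoff 3 h replicate 1 or replicate 2 ended the call (edgeR adjusted p = 0.150 and 0.0599).

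At the scale of single nucleosomes, the pericentromeres changed about as often as the genome. Of the 1359 members tested, 26 fell and 25 rose in H3 shutoff (edgeR, adjusted p under 0.05), which is 1.91% and 1.84%, against 2.2% and 2.03% of all nucleosomes. Under 0.5 kb 1 of 52 fell and 0 rose, at 0.5 to 3 kb 4 of 340 fell and 7 rose, and at 3 to 10 kb 21 of 967 fell and 18 rose. The single call in the nearest class is too few to set that class apart.

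The counts depended on scaling and on the block. With 1 residual degree of freedom, the blocked fit gave no weight to the spread of a single nucleosome and used the trend over all of them. Without the replicate block 13 members fell and 8 rose, against 0.96% and 0.795% of all nucleosomes. Scaled to library totals, 124 fell and 10 rose, against 9.68% and 1.05% of all nucleosomes. DESeq2 with the block called 0 of the members and 0 of all 51060 nucleosomes (unadjusted p under 0.05, 26 members lower and 13 higher, and 1166 and 689 of all). Without it DESeq2 called 14 lower and 0 higher, the 3 named falls among them, of the 142 members to which it gave an adjusted p, which is 9.86%, against 8.96% lower and 0.344% higher of all nucleosomes with an adjusted p. Single libraries could be left out only without the block, so these counts stand beside the 21 calls of that fit. There were 3 calls without H3 shutoff 3 h replicate 1 (0.221%, against 0.0588% of all nucleosomes) and 10 without replicate 2 (0.736%, against 1.03%). Without H3 shutoff 0 h replicate 1 there were 98 (7.21%, against 6.74%), and without replicate 2 there were 137 (10.1%, against 12.8%). As shares of the members the falls and rises of edgeR were 0.957% and 0.589% without the block, and 9.12% and 0.736% with library totals.

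The values of the called nucleosomes, which also decided the calls, are given as a description. The 26 that fell had a median of 51.25 read centres in H3 shutoff 3 h and 138.5 in H3 shutoff 0 h, with log2 changes of -1.62 to -0.94, and for all 26 the times did not overlap. The 25 that rose had a median of 60 in H3 shutoff 3 h and 26.5 in H3 shutoff 0 h, with log2 changes of 0.93 to 2.08, and 23 did not overlap.

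The largest fall was at 159575 on chromosome 5, 7535 bp to the right of CEN5. This nucleosome held 41 and 37 read centres in H3 shutoff 3 h, 153 and 130 in H3 shutoff 0 h, 154 in wildtype 3 h and 113 in wildtype 0 h (log2 change -1.62, edgeR adjusted p = 0.000248). It was the only member whose change differed from that of wildtype (log2 difference -2.15, edgeR adjusted p = 0.0288), against 0.0725% of all nucleosomes lower and 0.092% higher in that test. The difference was not called without the block (edgeR adjusted p = 0.218), nor when H3 shutoff 3 h replicate 1 or replicate 2 was also left out (edgeR adjusted p = 0.0709 and 0.0556). It was called without the block when H3 shutoff 0 h replicate 1 or replicate 2 was left out (edgeR adjusted p = 0.00646 and 5.28e-05). With all 6 libraries and no block, edgeR called this difference at no nucleosome of the genome (lowest edgeR adjusted p = 0.218). With a window of 73 bp the fall over time was -0.81 and was not called (edgeR adjusted p = 0.0719).

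A neighbour at 158926 held 48 and 53 in H3 shutoff 3 h, 126 and 170 in H3 shutoff 0 h, 124 in wildtype 3 h and 126 in wildtype 0 h (log2 change -1.30, edgeR adjusted p = 0.00344). The fall closest to a centromere was at 436699 on chromosome 10, 429 bp to the right of CEN10. It held 53 and 71 in H3 shutoff 3 h, 205 and 163 in H3 shutoff 0 h, 224 in wildtype 3 h and 190 in wildtype 0 h (log2 change -1.33, edgeR adjusted p = 0.0052). It is the next nucleosome outwards from the right flank of CEN10, which held no more than 25 in any library and was lower in both wildtype libraries than in H3 shutoff.

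The largest rise was at 143113 on chromosome 1, 8407 bp to the left of CEN1. It held 61 and 41 in H3 shutoff 3 h, 11 and 17 in H3 shutoff 0 h, 18 in wildtype 3 h and 23 in wildtype 0 h (log2 change 2.08, edgeR adjusted p = 0.00317). Both 3 h values of H3 shutoff stood above all other libraries.

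On chromosome 11 the nucleosome at 438286, 1544 bp to the left of the centre, held 40 and 57 in H3 shutoff 3 h, 22 and 10 in H3 shutoff 0 h, 22 in wildtype 3 h and 15 in wildtype 0 h (log2 change 1.84, edgeR adjusted p = 0.00913). That at 432158, 7672 bp to the left, held 66 and 53 in H3 shutoff 3 h, 15 and 28 in H3 shutoff 0 h, 19 in wildtype 3 h and 24 in wildtype 0 h (log2 change 1.72, edgeR adjusted p = 0.00572). In the wildtype culture their log2 values were 0.52 and -0.32.

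Calls were unevenly spread over the chromosomes. Around CEN10, 6 nucleosomes rose and 2 fell, and 5 of the rises lay 3002 to 5550 bp to its right, at 439272, 439587, 439764, 439971 and 441820, in and beyond the tile that rose. Around CEN4, 5 rose and 0 fell, around CEN3 4 fell and 0 rose, around CEN12 3 fell and 0 rose, and around CEN2 none was called. These clusters were picked out after their values were seen.

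The nucleosome of the wildtype 0 h list nearest to each centre lay 8 to 231 bp away, with a median of 187.5 bp. None of the 13 tested was called by edgeR (lowest adjusted p = 0.447, and 0 at an unadjusted p under 0.05). DESeq2 with the block called none of them and no other nucleosome. The nearest calls of CEN13, 8 bp from the centre, and of CEN9, 97 bp from it, rested on 3 and 1 read centres in wildtype 0 h, and were not tested.

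A binomial test of 2 libraries with Bonferroni adjustment at 0.01 was taken from the study's methods, but read centres were counted at the wildtype 0 h centres here and at each library's own centres there. It called 53 members reduced at 3 h in H3 shutoff culture 1 (3.87%, against 4.59% of all nucleosomes), 42 in culture 2 (3.07%, against 2.77%) and 1 in the wildtype culture (0.073%, against 0.366%). Reduced in both H3 shutoff cultures were 14 members, or 1.02%, against 1.04% of all nucleosomes. Retained in both was 0, against 0.0156%. Retained were 4 in culture 1 (0.292%, against 0.451%), 6 in culture 2 (0.438%, against 0.212%) and 9 in the wildtype culture (0.657%, against 0.601%), so the H3 shutoff cultures lay on opposite sides of the genome's share. Such calls compare libraries and not conditions.

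Nucleosomes next to the centromere were sharper than the rest in all 6 libraries, and less sharp at 3 h than at 0 h in both H3 shutoff cultures. Fuzziness, or how widely read centres scatter within a nucleosome (their s.d.), was in the median 35.7 and 37.7 bp under 0.5 kb in H3 shutoff 3 h, against 38.1 and 40.1 bp on the rest. In H3 shutoff 0 h it was 31.1 and 27.7 bp, against 36.5 and 35.1 bp on the rest. In wildtype it was 24.3 bp at 3 h and 24.1 bp at 0 h, against 30.5 and 31.0 bp on the rest.

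The median under 0.5 kb was 4.63 and 9.93 bp larger at 3 h than at 0 h in the H3 shutoff cultures and 0.155 bp larger in wildtype. On the rest of the chromosomes it was 1.61 and 4.91 bp larger in H3 shutoff and changed by -0.508 bp in wildtype. Over all members within 10 kb it was 2.51 and 6.38 bp larger in H3 shutoff and 0.862 bp larger in wildtype. In each H3 shutoff culture the median under 0.5 kb thus grew by more than that of all members and that of the rest, a difference that was not tested. It held 60 and 65 nucleosomes in H3 shutoff 3 h and 59 and 54 in H3 shutoff 0 h.

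**Figure D5:**
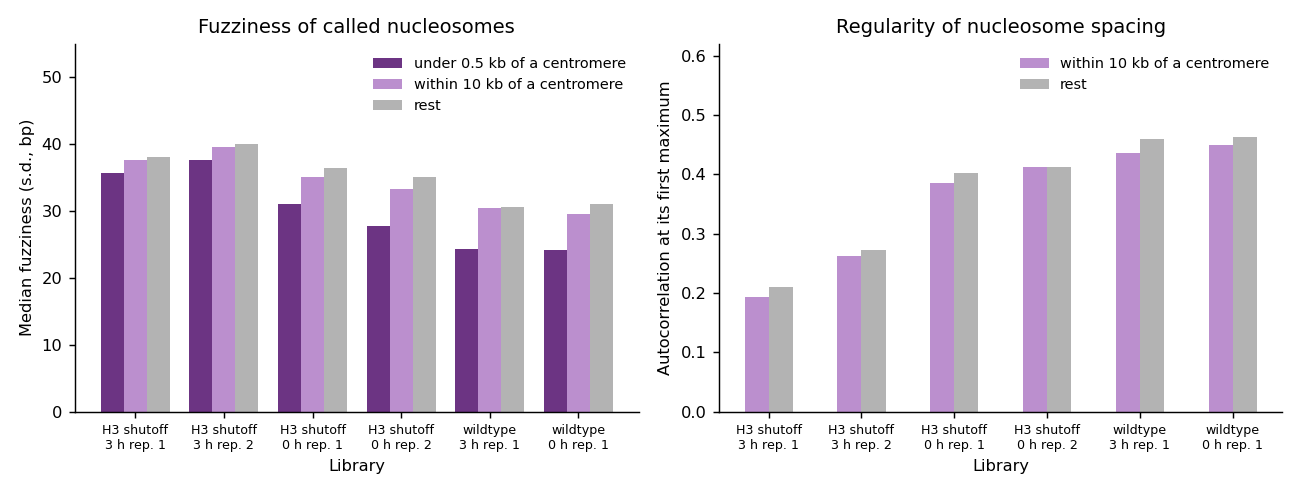
Median fuzziness in bp of nucleosomes under 0.5 kb and within 10 kb of a centromere and on the rest (left), and autocorrelation of the smoothed read-centre density at its first maximum within 10 kb and on the rest (right), by library. The autocorrelation is 0.194 and 0.262 in H3 shutoff 3 h and 0.386 and 0.413 in H3 shutoff 0 h within 10 kb, close to the grey bars of the rest.

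Spacing was less regular after H3 depletion, near centromeres as elsewhere. The autocorrelation of the smoothed density at its first maximum, a measure of how regular the array is, was 0.194 and 0.262 within 10 kb and 0.210 and 0.273 on the rest in H3 shutoff 3 h. In H3 shutoff 0 h it was 0.386 and 0.413 within 10 kb and 0.403 and 0.413 on the rest. In wildtype it was 0.437 within 10 kb and 0.459 on the rest at 3 h, and 0.449 and 0.463 at 0 h.

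Within 10 kb this is a change of -0.192 and -0.150 in the H3 shutoff cultures (mean -0.171 ± 0.0297, SD, n = 2), against -0.0127 in wildtype. The rest changed by -0.193 and -0.140 in H3 shutoff. The maximum lay at a lag of 171 to 174 bp in all 6 libraries, a narrow range beside the differences in strength. Neighbouring called nucleosomes lay, in the median, 191 and 197 bp apart in H3 shutoff 3 h, 191 and 196 bp in H3 shutoff 0 h, 200 bp in wildtype 3 h and 197 bp in wildtype 0 h.

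The median shift of called centres was larger in both H3 shutoff cultures than in the wildtype culture. Matched by an overlap of at least 30 bp, the pericentromeric nucleosomes shifted by a median of 14 and 14 bp in the H3 shutoff cultures (12 and 12 bp on the rest) and by 4 bp in wildtype (4 bp on the rest). The flanking nucleosomes shifted by 12 and 17 bp in H3 shutoff and by 2 bp in wildtype. Of the matched flanks, 17 moved outwards and 13 inwards in H3 shutoff culture 1, and 18 outwards and 14 inwards in culture 2, with a median of 3 bp outwards in each. Flanks thus moved both towards and away from the gap.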

How the data were processed

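MNase-seq of Saccharomyces cerevisiae was single-end. Reads had been aligned to sacCer1 with Bowtie 0.12.6 at default settings by the authors, who extended them to the average fragment size of each library (158 to 174 bp), took out those at the ribosomal DNA and sampled each library to the same depth. The deposited nucleosome lists hold whole-number counts of read centres, with the s.d. of the centres in bp, and the deposited intervals give start and end of each extended read. Counts of read centres within 50 bp recomputed from the intervals matched the deposited ones for at least 99.996% of calls.

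Members and lists were chosen with earlier results of these data known. Read centres were counted within 50 bp of the wildtype 0 h centres (more than 5 read centres there, mean of at least 10 over 6 libraries, 51060 tested) and in 1 kb tiles (mean of at least 50, 12025 tested) and tested in edgeR 4.0.16 (R 4.3.3) with TMM scaling, quasi-likelihood tests, the culture as a block and Benjamini-Hochberg adjustment. The wildtype pair adds no residual degree of freedom, so the spread rests on 1 residual degree of freedom, and edgeR's prior degrees of freedom came out infinite, that is, all features shared 1 trend of spread and a feature's own spread had no weight. Strains were compared in 4 groups without a block. The pairing comes from the series' own description of each replicate as 1 experiment with both times and from the methods, in which 1 culture was divided. Deviations of same-numbered libraries correlated at -0.0839 (nucleosomes) and -0.0915 (tiles). DESeq2 1.42.0, library totals, no filter, a window of 73 bp, no replicate block and leaving out libraries (fitted without the block, which would leave no residual degree of freedom) were alternatives. DESeq2's adjusted p was left missing where its filter on low counts removed it. Region summaries used Python 3.11.15 and scipy 1.17.1, with density smoothed at an s.d. of 10 bp. The scripts were tested on simulated data. All 16 central tiles, the nucleosome nearest each centre and the 3 largest falls and 3 largest rises among called members (same sign in both cultures, mean read centres of 20 or more) were named, and others were named after their values were seen. No sequence was read and no gene annotation was used here.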

Additional observations from a re-analysis of the deposited data

Results flagged for a closer look

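The change over time differed between H3 shutoff and wildtype at 1 nucleosome and 5 tiles of the pericentromeres, by edgeR's test of the difference with the culture as a block. All rest on 1 wildtype culture. None was called by edgeR without the replicate block or by DESeq2 with it, but these fits called no difference at any nucleosome or tile of the genome. DESeq2 without the block called the tiles at CEN4 (adjusted p = 0.0283) and CEN15 (adjusted p = 0.0312). At the chromosome 5 nucleosome at 159575 the log2 difference was -2.15 (edgeR adjusted p = 0.0288).

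Of the tiles, that 1 kb to the right of CEN4 held 548 and 615 read centres in H3 shutoff 3 h, 500 and 498 in H3 shutoff 0 h, 955 in wildtype 3 h and 426 in wildtype 0 h (log2 difference -0.98, edgeR adjusted p = 0.0329). Here the wildtype library at 3 h was the high one. That 3 kb to the right of CEN12 held 391 and 480 in H3 shutoff 3 h, 632 and 579 in H3 shutoff 0 h, 694 in wildtype 3 h and 503 in wildtype 0 h (log2 difference -0.98, edgeR adjusted p = 0.0297). That 5 kb to the right of CEN15 held 435 and 514 in H3 shutoff 3 h, 743 and 651 in H3 shutoff 0 h, 804 in wildtype 3 h and 612 in wildtype 0 h (log2 difference -0.99, edgeR adjusted p = 0.0347).

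The tile 5 kb to the right of CEN16 held 316 and 367 in H3 shutoff 3 h, 605 and 316 in H3 shutoff 0 h, 515 in wildtype 3 h and 307 in wildtype 0 h (log2 difference -1.15, edgeR adjusted p = 0.0181), with the H3 shutoff cultures of opposite sign. The tile 2 kb to the right of CEN13 held 405 and 472 in H3 shutoff 3 h, 222 and 312 in H3 shutoff 0 h, 211 in wildtype 3 h and 290 in wildtype 0 h (log2 difference 1.15, edgeR adjusted p = 0.0429). In the mean profile at the centromere, the average of the highest peak on either side was lower at 3 h in both H3 shutoff cultures and higher in the wildtype culture, a difference of -0.68 between the mean changes that was not tested. With each distinct interval counted once the difference was -0.26, and the wildtype change was 0.0044. Aligned on the flanking nucleosomes, the first peak in wildtype was 2.26 at 3 h and 2.30 at 0 h. In H3 shutoff that peak was lower at 3 h beside centromeres and beside other gaps of the same width.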

How the results depend on the processing

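Against 51 pericentromeric nucleosomes called over time in H3 shutoff, 21 were called with no replicate block, 134 with library totals, 0 with DESeq2, 14 with DESeq2 and no replicate block (chosen after the data were seen), 20 with a window of 73 bp, and 3 to 137 when single H3 shutoff libraries were left out, which also dropped the replicate block for lack of residual degrees of freedom. For the difference from wildtype (1 called) these were 0 with no replicate block, 4 with library totals, 0 with DESeq2, with or without the block, and 0 to 79 with libraries left out. Central tiles called with libraries left out numbered 0 to 2 over time, 0 to 2 for the difference from wildtype and 0 to 4 between strains at 3 h, the most without H3 shutoff 0 h replicate 2. The cause was not tested. Over time, the window of 73 bp called 1.46% of members, against 1.76% of all nucleosomes, and DESeq2 with the block called 0 of all. The difference from wildtype was called at 0 of all nucleosomes with no replicate block or with DESeq2 and the block. With library totals it was called at 0.294% of members, against 0.353% of all nucleosomes. Its share of all nucleosomes with libraries left out is not given here. The median over chromosomes moved the log2 density change to 0.0397 at 3 to 10 kb and 0.0482 within 10 kb. Counting distinct intervals once gave -0.25 for the highest peaks on either side of the gap, and density without an upper limit gave -0.0294 for the change in regularity beyond that of the rest. The shift was 9 bp with an overlap of 100 bp and 13.5 bp with at least 20 read centres. Taken from 1 culture, 42 to 53 members were reduced and 4 to 6 retained. The 6 named nucleosomes kept their sign throughout, and 9 of 30 values under other settings and 6 of 24 with a library left out lost their call (6 of the 9 with DESeq2 and the block). The nearest nucleosomes of CEN1, CEN9 and CEN13 had too few reads to be tested, and every comparison with wildtype rests on 1 library per time.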
